A study of Mus musculus with 11 samples.

Results

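The urea cycle and the enzymes that break down amino acids were followed in mouse liver through 38 genes chosen by pathway: 10 of the urea cycle and its nitrogen supply, 10 of aromatic amino acids, 8 of glycine, one-carbon units and proline, 6 of branched-chain amino acids and propionate, and 4 of lysine and histidine. Every probe set, the group of oligonucleotide probes that reads 1 transcript, was taken if the array annotation gave it 1 of these symbols and no other. Of the 38 genes, 35 had such probe sets, 47 in all out of 22690 on the array, and 34 genes were bright enough to be among the 7924 genes tested. Kynu, kynureninase of tryptophan breakdown, had signals of 6 to 69.1 on its probe set and was too dim for the test. Gls2 and Amt had no probe set under their symbol, and Ass1 had only one that the annotation also gives to a second gene, so these 3 were not analysed here.

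Liver RNA came from 11 male mice of a mixed background, 1 array per mouse, and the series asks what a fat-rich diet, and muscle growth brought on by Akt1, do to gene expression in this tissue. Among wild-type mice, 3 were fed a normal diet and 4 a high-fat diet. The third group was 4 mice with the Akt1 double transgene (DTG), fed the high-fat diet. Doxycycline, the drug that switches inducible transgenes on, was given to all 3 groups for 3 weeks, so the controls carry it too. Muscle hypertrophy is marked for the DTG mice alone. Akt1 encodes a kinase that acts downstream of the insulin receptor. The labels give neither the promoter that drives the transgene nor the ages of the mice, and there were no DTG mice on the normal diet, so the transgene's effect is known here on the high-fat diet only. The same 4 wild-type high-fat arrays enter both the diet and the transgene comparison, and the comparison of transgenic mice with normal-diet mice uses arrays of both.

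The urea cycle turns ammonia, set free when amino acids are broken down, into urea that the kidney can excrete. Its first steps run in the mitochondria and the rest in the cytosol, chiefly in hepatocytes near the portal vein. The carbon skeletons that remain are oxidised or made into glucose and ketone bodies by separate pathways for each family of amino acids. The branched-chain amino acids leucine, isoleucine and valine are an exception in that the liver holds little of the aminotransferase that starts their breakdown, while it holds much of the dehydrogenase of the step that follows.

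No member passed the test in any comparison: limma called 0 of 34 for diet, 0 of 34 for the transgene and 0 of 34 for transgenic mice against normal-diet mice, at a Benjamini-Hochberg adjusted p under 0.05 over all 7924 genes. The same test called 0% of all genes for diet, 0.366% for the transgene and 2.08% for transgenic against normal-diet mice. The members' values below are therefore differences between these arrays that did not pass in this fit. Members with values on every array are given with their error, and other members, probe sets and fits mostly without it. Differences are on the log2 scale of the signal, where 1 is a doubling, with limma's moderated standard error (SE).

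For diet, 29 of the 34 members had a mean log2 signal above that of the normal-diet arrays and 5 below, against 51.1% above over all genes. The median difference was 0.19 over the members and 0.0067 over all genes. Of the 34 members, 23 were in the brightest 10% of tested genes by mean signal, where the median diet difference was 0.044. All genes are therefore a dimmer background for the members' shares here and below. At an unadjusted p under 0.05 there were 12 members with higher signals (35.3%; all genes 3.92%) and 0 with lower signals (all genes 3.09%). In 8 members every high-fat array lay above every normal-diet array (23.5%; all genes 4.58%), and in 0 every high-fat array lay below (all genes 3.33%). The 12 became 6 without normal-diet array 3 and 5 without wild-type high-fat array 1.

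For the transgene, 14 members had a mean log2 signal above that of wild-type high-fat arrays and 20 below (all genes 50.2% above), with a median difference of -0.06 (all genes 0.0010). At an unadjusted p under 0.05 there was 1 member with a higher signal, Agxt (2.94%; all genes 6.95%), and 6 with lower signals (17.6%; all genes 6.74%). Of these 6, 4 had every transgenic array below every wild-type high-fat array (11.8%; all genes 4.09%), namely Prodh, Bckdha, Ivd and Qdpr, and 0 members lay above without overlap (all genes 4.32%). Without transgenic arrays 3 and 4 the count of 6 became 3 and the 1 became 0. These 3 were Prodh and Bckdha, and Dmgdh, which was not among the 6. Leaving out transgenic array 1 turned the 1 into 6, and leaving out any 1 of wild-type high-fat arrays 3 and 4 and transgenic array 3 turned it into 0. The median was -0.13 without wild-type high-fat array 2 and -0.030 without wild-type high-fat array 4.

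**Figure D1:**
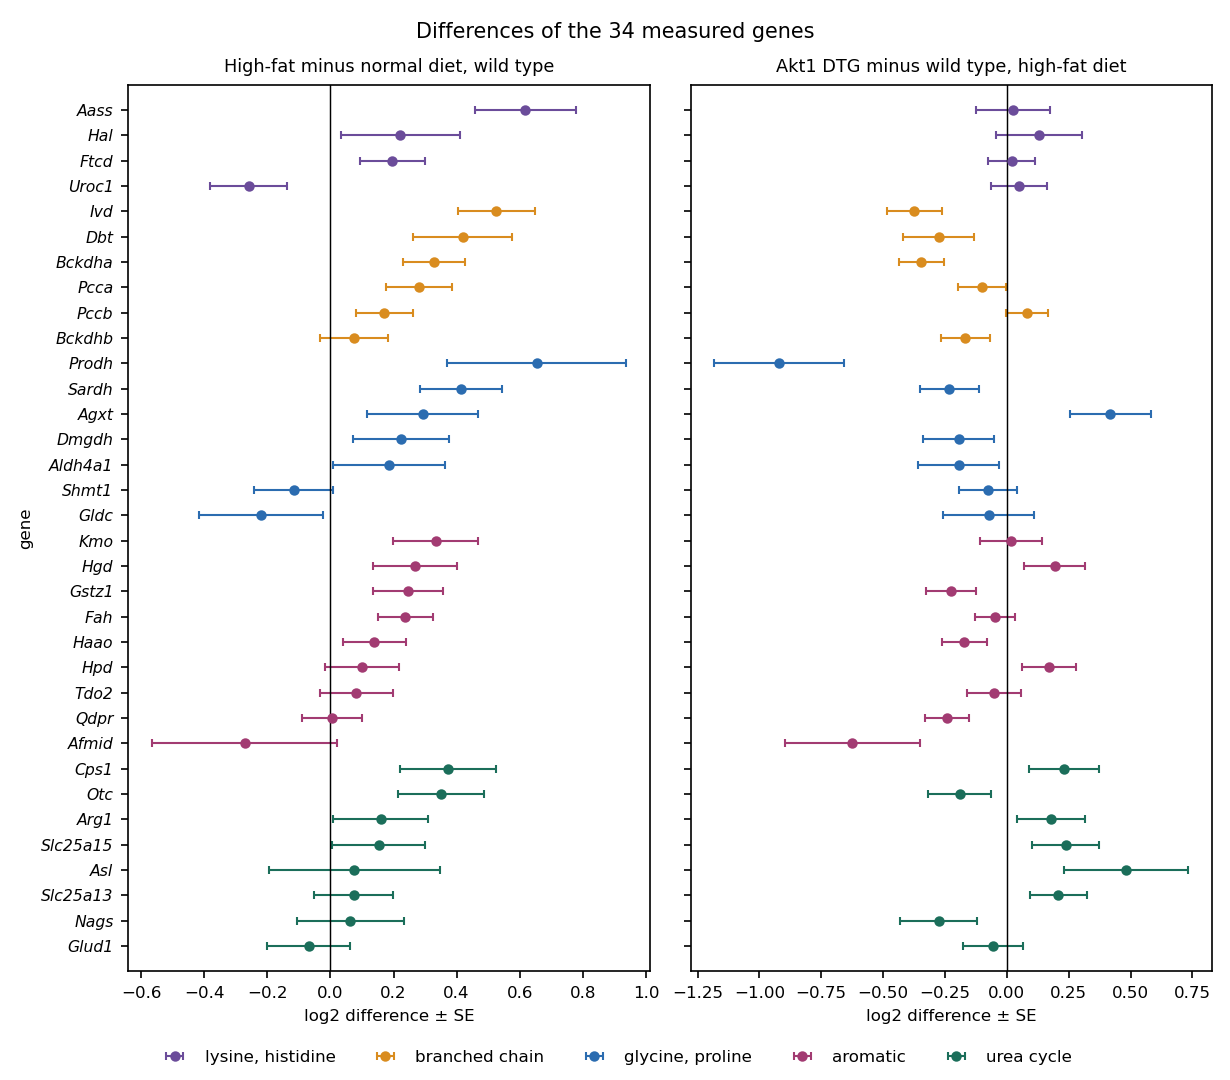
Each point is the log2 difference of 1 gene with limma's SE, for diet on the left (wild type, high fat minus normal) and for the transgene on the right (DTG minus wild type, both high fat), with genes in rows coloured by pathway. The panels have different horizontal scales. Diet differences lie mostly right of 0 (29 of 34), transgene differences fall on both sides (14 above, 20 below), and Prodh is the lowest for the transgene at -0.92.

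Liver identity was checked with markers. All 6 hepatocyte markers with a probe set passed the limit on dim probe sets, and their summed signal was 109964 to 130078 on normal-diet arrays, 117240 to 132121 on wild-type high-fat arrays and 120946 to 167298 on transgenic arrays. None of 7 skeletal muscle markers and none of 5 kidney markers was above that limit. Of 9 Kupffer cell and macrophage markers, 8 were above it (Marco was not), with sums of 2430 to 4519.9, 3533 to 7533 and 4132 to 11517 in the same order of groups. Median differences over these 8 were 0.61 for diet and 0.46 for the transgene. Of 8 stellate cell markers 6 were above the limit (Col1a1 and Hand2 were not), with sums of 4952 to 5292, 4845 to 8483 and 4696 to 5703 and medians of 0.41 for diet (5 of 6 higher) and -0.39 for the transgene (5 of 6 lower). All 8 endothelial markers were above it, with sums of 3841 to 4878, 3344 to 4124 and 4113 to 5174 and medians of -0.18 and 0.18. The part of these markers in the members' values was not tested. In whole tissue, fewer cells of a type and less RNA per cell cannot be told apart. The highest signal on transgenic array 3 was 42426 and on array 4 it was 43273, against 27780 to 35450 on the other 9 arrays. The members' transgene values are therefore also given without transgenic arrays 3 and 4 where they move by over 1.5 times. Exceptions are Kmo, Haao, Gldc and Shmt1, which also moved by over 1.5 times, each toward 0.

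Of the urea cycle genes, 8 of 10 were measured. For diet 7 of the 8 had higher mean log2 signals (median 0.11), for the transgene 5 (median 0.19, and 0.022 without transgenic arrays 3 and 4), and 0 passed the test in either. The spread between mice was wide for several of the enzymes, and normal-diet array 1 had the highest signal of its group for 7 of the 8.

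Cps1, carbamoyl phosphate synthetase, makes the committed step of the cycle from ammonia and bicarbonate in the mitochondria. It read 18634, 11684 and 14272 on the normal-diet arrays, 20256, 19506, 17549 and 18417 on the wild-type high-fat arrays, and 19266, 20065, 26010 and 24057 on the transgenic arrays. Transgenic arrays 3 and 4 held the highest values of all 11, and normal-diet array 1 reached into the high-fat range. The diet difference was 0.37 ± 0.15 (SE, limma adjusted p = 0.674) and the transgene difference 0.23 ± 0.14 (adjusted p = 0.505). The latter became 0.057 without transgenic arrays 3 and 4 and 0.11 after quantile normalization. The diet value was 0.21 without normal-diet array 2.

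Otc, ornithine transcarbamylase, joins carbamoyl phosphate to ornithine and is the one X-linked enzyme of the cycle. Its sequence upstream of the first annotated start is shown because Otc was the urea cycle gene whose wild-type groups did not overlap. It is from RefSeq (GRCm38.p6, chrX:10252055-10252229, plus strand, 175 bases) and holds 0 matches to CCAAT, the motif bound by the factor NF-Y, on either strand, so no base is in capitals.
Otc: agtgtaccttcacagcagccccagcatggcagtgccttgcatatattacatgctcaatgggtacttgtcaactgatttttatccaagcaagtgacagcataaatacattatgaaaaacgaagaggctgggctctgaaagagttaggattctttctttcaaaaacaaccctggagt
Otc signals were 9547, 8087 and 8808 on normal-diet arrays, 11838, 12085, 10853 and 10170 on wild-type high-fat arrays, and 11398, 11499, 7750 and 9193 on transgenic arrays. All 4 wild-type high-fat arrays lay above all 3 normal-diet arrays, while the transgenic arrays split, with 1 and 2 in the wild-type high-fat range and 3 and 4 in or below the normal-diet range. For diet the difference was 0.35 ± 0.14 (SE, limma adjusted p = 0.674) and the transgene difference -0.19 ± 0.13 (adjusted p = 0.541), which became 0.030 without transgenic arrays 3 and 4. The other 2 probe sets of Otc gave diet differences of 0.79 and 0.21, the first from a far dimmer probe set with signals of 106.2 to 276.2.

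Asl, argininosuccinate lyase, splits argininosuccinate into arginine and fumarate. It read 10907, 6140 and 4661 on normal-diet arrays, 7742, 8447, 5724 and 6969 on wild-type high-fat arrays, and 7044, 9354, 12929 and 11685 on transgenic arrays. The normal-diet values spanned the whole wild-type high-fat range, so no diet difference could be read (0.075 ± 0.27, SE, limma adjusted p = 0.967, 95% confidence interval -0.51 to 0.66). Without normal-diet array 3 it was -0.20 and without normal-diet array 1 it was 0.42. The transgene difference, 0.48 ± 0.25 (adjusted p = 0.422), was the highest among the 34 members with a 95% confidence interval of -0.062 to 1.03. It became 0.18 without transgenic arrays 3 and 4.

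Arg1, arginase, releases urea and returns ornithine to the mitochondria. Its signals were 19056, 14925 and 14115 on normal-diet arrays, 17807, 17587, 17252 and 18344 on wild-type high-fat arrays, and 15332, 19487, 24294 and 22467 on transgenic arrays. Wild-type high-fat arrays were close to each other (17747 ± 458, SD, n = 4), and transgenic arrays ranged both below and above them. Neither the diet difference (0.16 ± 0.15, SE, limma adjusted p = 0.895) nor the transgene difference (0.18 ± 0.14, adjusted p = 0.596) passed. Leaving out transgenic arrays 3 and 4 turned the transgene value to -0.038, and quantile normalization gave 0.06. Without normal-diet array 1 the diet value was 0.29, and without normal-diet array 3 it was 0.07.

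Nags makes N-acetylglutamate, the activator that Cps1 needs. It read 1258, 913 and 876 on normal-diet arrays, 1014, 937, 1008 and 1256 on wild-type high-fat arrays, and 1052, 691, 839 and 916 on transgenic arrays. The 3 groups overlapped, with a diet difference of 0.063 ± 0.17 (SE, limma adjusted p = 0.964) and a transgene difference of -0.28 ± 0.16 (adjusted p = 0.468). The transgene value was -0.17 without transgenic array 2. The carriers Slc25a15, which brings ornithine into the mitochondria, and Slc25a13, which exchanges aspartate for glutamate, had transgene differences of 0.24 and 0.21, and these became 0.036 and 0.013 without transgenic arrays 3 and 4. The other probe set of Slc25a15 gave 0.56 for the transgene, and was not refitted without these arrays. Glud1, glutamate dehydrogenase, which frees ammonia from glutamate, had a transgene difference of -0.055, and -0.18 without transgenic arrays 3 and 4.

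**Figure D2:**
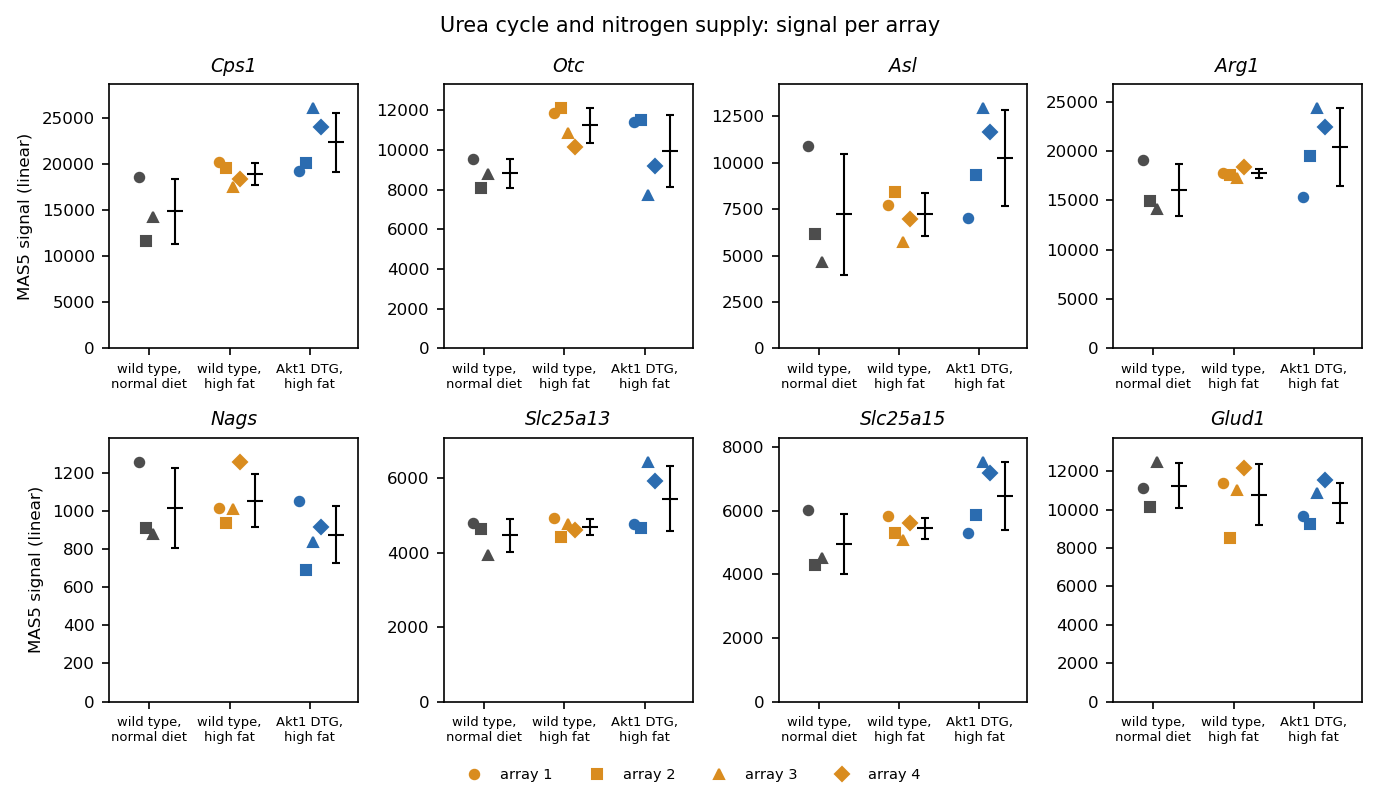
Signal on a linear scale for the 8 measured urea cycle and nitrogen supply genes, 1 point per array with the shape giving the array number, and the mean with SD at the right of each group (wild type normal diet n = 3, wild type high fat n = 4, Akt1 DTG high fat n = 4). Transgenic arrays 3 and 4 (triangle and diamond) stand above the other 9 arrays for Cps1, Asl, Arg1, Slc25a13 and Slc25a15, and below transgenic arrays 1 and 2 for Otc.

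The 2 transgenic arrays were counted over all members, a count chosen after their values were seen. Both lay above all other 9 arrays for 7 of 34 members (20.6%; all genes 6.71%): 5 of the urea cycle genes, and Hpd and Hgd of tyrosine breakdown. Both lay below the other 9 for 2 of 34 (5.88%; all genes 8.11%), Qdpr and Afmid. Against transgenic arrays 1 and 2, both were higher for 11 members, both lower for 7, and 16 were mixed. Of the 34 members, 23 were in the brightest 10% of tested genes by mean signal, so all genes are a dimmer background. Transgenic arrays 3 and 4 also read above the other 9 for the hepatocyte markers Alb, Ttr, Apoa1, Apob and Fgb, but not Hnf4a. The part of these 2 arrays in the transgene values was not tested beyond leaving them out.

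**Figure D3:**
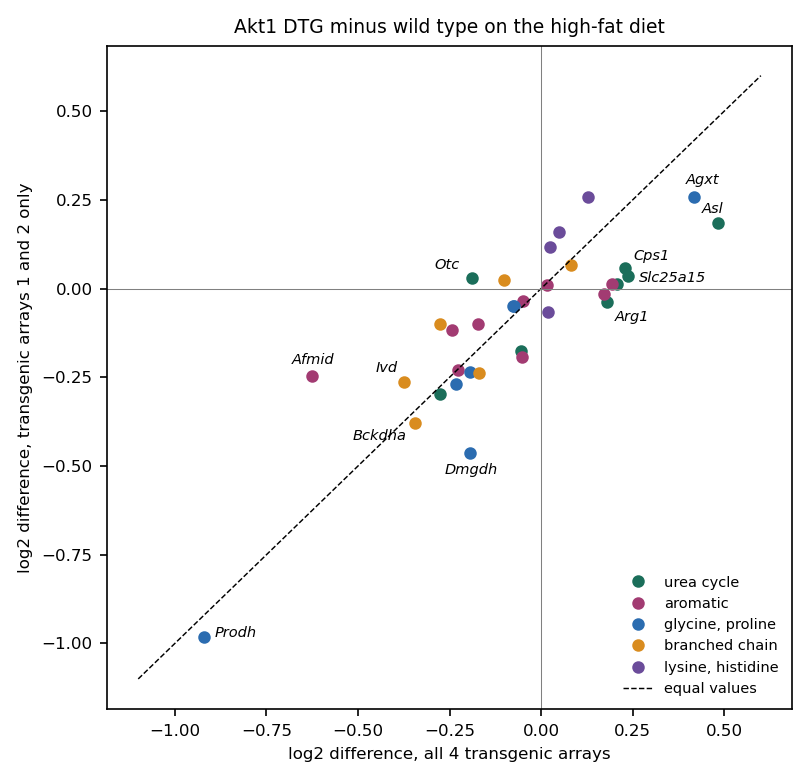
Transgene difference (DTG minus wild type, both high fat, log2) of each member from all 4 transgenic arrays on the horizontal axis and from transgenic arrays 1 and 2 only on the vertical axis, both against the 4 wild-type high-fat arrays, with a dashed line where the values are equal. Cps1, Asl and Arg1 lie nearer 0 without the 2 arrays (0.057, 0.18 and -0.038), while Prodh and Bckdha are at -0.98 and -0.38 there, against -0.92 and -0.35 from all arrays.

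Aromatic amino acid breakdown was measured for 9 of 10 genes. For diet 8 of the 9 had higher mean log2 signals (median 0.14), for the transgene 3 (median -0.052, and -0.099 without transgenic arrays 3 and 4), and 0 passed the test in either. The tyrosine pathway enzymes Hpd, Hgd, Gstz1 and Fah turn 4-hydroxyphenylpyruvate into fumarate and acetoacetate in that order. Their diet differences were 0.10, 0.27, 0.25 and 0.24. The transgene differences of Hpd and Hgd were 0.17 and 0.19, and -0.015 and 0.014 without transgenic arrays 3 and 4.

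Fah, fumarylacetoacetate hydrolase, is the last enzyme of tyrosine breakdown. Its signals were 11615, 11153 and 10733 on normal-diet arrays, 13788, 12718, 12784 and 13374 on wild-type high-fat arrays, and 11905, 13847, 11740 and 13554 on transgenic arrays. Both high-fat groups lay above the normal-diet arrays without overlap, and they overlapped each other. Between the wild-type groups the difference was 0.24 ± 0.088 (SE, limma adjusted p = 0.67), a 1.18-fold higher geometric mean, and the transgene difference -0.048 ± 0.081 (adjusted p = 0.834, 95% confidence interval -0.23 to 0.13).

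Qdpr, which regenerates the tetrahydrobiopterin used by phenylalanine hydroxylase, had the smallest unadjusted p of the aromatic genes for the transgene. It read 11907, 12497 and 11506 on normal-diet arrays, 11981, 11878, 11729 and 12412 on wild-type high-fat arrays, and 10489, 11663, 9495 and 9114 on transgenic arrays. The wild-type groups covered the same range and every transgenic array was below every wild-type high-fat array, array 2 by little. The transgene difference was -0.24 ± 0.087 (SE, limma adjusted p = 0.249), and -0.12 without transgenic arrays 3 and 4. The diet difference was 0.0042 ± 0.094 (adjusted p = 0.991, 95% confidence interval -0.20 to 0.21).

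Kmo, kynurenine 3-monooxygenase of the tryptophan pathway, read 4029, 3396 and 3322 on normal-diet arrays, 5093, 3746, 4391 and 4877 on wild-type high-fat arrays, and 4251, 4820, 3938 and 5295 on transgenic arrays. Normal-diet array 1 and wild-type high-fat array 2 were the pair that overlapped. For diet the difference was 0.33 ± 0.13 (SE, limma adjusted p = 0.674) and the transgene difference 0.016 ± 0.12 (adjusted p = 0.967, 95% confidence interval -0.26 to 0.29). Tdo2, tryptophan dioxygenase, which opens the ring at the head of that pathway, had 0.083 for diet and -0.052 for the transgene, and -0.19 for the latter without transgenic arrays 3 and 4. The other probe set of Tdo2 gave 0.38 for diet and -0.25 for the transgene, and was not refitted without these arrays. Afmid, the formamidase that follows Tdo2, was a dim member with signals of 82.2 to 299.3 and had the lowest diet difference of the 34, -0.27 ± 0.29 (limma adjusted p = 0.912), and a transgene difference of -0.62 ± 0.27 (adjusted p = 0.341), which became -0.25 without transgenic arrays 3 and 4.

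Genes of glycine, one-carbon units and proline numbered 7 measured of 8. For diet 5 of the 7 had higher mean log2 signals (median 0.22), for the transgene 1 (median -0.19), and 0 passed the test in either. The range was the widest of the 5 groups of members for the transgene, from Prodh at -0.92 to Agxt at 0.42.

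Prodh, proline dehydrogenase, starts proline breakdown in the mitochondria. It read 3396, 2091 and 1131 on normal-diet arrays, 3187, 2444, 3484 and 3632 on wild-type high-fat arrays, and 1574, 1617, 1540 and 1959 on transgenic arrays. The 4 transgenic arrays lay close together (1672 ± 194, SD, n = 4) and below all wild-type high-fat arrays (3187 ± 529, SD, n = 4), and the 3 normal-diet arrays ranged from below all transgenic arrays into the wild-type high-fat range. The transgene difference was -0.92 ± 0.26 (SE, limma adjusted p = 0.155), a geometric mean of 0.528 times that of wild type, and -0.98 without transgenic arrays 3 and 4. The diet difference, 0.65 ± 0.28 (adjusted p = 0.692), depended on which normal-diet array was in the fit: it was 1.03 without array 1 and 0.24 without array 3. Aldh4a1, which oxidises the product of Prodh to glutamate, had 0.18 for diet and -0.19 for the transgene.

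Sardh, sarcosine dehydrogenase, which hands a one-carbon unit to folate and yields glycine, read 5993, 5088 and 4176 on normal-diet arrays, 7285, 5938, 6457 and 7227 on wild-type high-fat arrays, and 6133, 5043, 5739 and 5981 on transgenic arrays. Normal-diet array 1 and wild-type high-fat array 2 overlapped, and the transgenic arrays overlapped both wild-type groups. Between the wild-type groups the difference was 0.41 ± 0.13 (SE, limma adjusted p = 0.606) and the transgene difference -0.23 ± 0.12 (adjusted p = 0.42). Its other probe set gave 0.66 and -0.41. Dmgdh, the dimethylglycine dehydrogenase of the step before, had 0.22 for diet, with all wild-type high-fat arrays above all normal-diet arrays, the lowest of them by little. Its transgene difference was -0.19, and -0.46 without transgenic arrays 3 and 4.

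Agxt, alanine-glyoxylate aminotransferase, makes glycine from glyoxylate. It read 3635, 4094 and 4166 on normal-diet arrays, 5099, 6267, 4298 and 4016 on wild-type high-fat arrays, and 5185, 6488, 8554 and 6105 on transgenic arrays. All 4 transgenic arrays were above the 3 normal-diet arrays, and the wild-type high-fat arrays overlapped both groups. The transgene difference was 0.42 ± 0.16 (SE, limma adjusted p = 0.286), and 0.26 without transgenic arrays 3 and 4. The diet difference was 0.29 ± 0.18 (adjusted p = 0.804), and 0.17 without wild-type high-fat array 2. Gldc of the glycine cleavage system and Shmt1, which moves one-carbon units between serine and glycine, had lower mean log2 signals for diet (-0.22 and -0.12), and 3 further probe sets of Shmt1 gave diet values from 0.00052 to 0.14.

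The 6 genes of branched-chain amino acids and propionate were all measured. For diet all 6 had higher mean log2 signals (median 0.30), and in 4 of them, Ivd, Bckdha, Dbt and Pcca, the wild-type groups did not overlap (all genes 4.58% higher without overlap). For the transgene 1 of the 6 was higher (median -0.22), and Ivd and Bckdha had all transgenic arrays below all wild-type high-fat arrays (all genes 4.09%). Stellate cell markers had medians of 0.41 and -0.39 in these comparisons, and their part in these values was not tested. None passed the test over all genes in either comparison. The sequences upstream of the first annotated starts of Ivd and Bckdha are shown because both had non-overlapping groups in both comparisons. They are from RefSeq (GRCm38.p6), Ivd at chr2:118861744-118861958 on the plus strand (215 bases) and Bckdha at chr7:25658783-25659011 on the minus strand (229 bases). Capitals mark CCAAT read on the opposite strand (ATTGG), with 3 matches for Ivd and 0 for Bckdha.
Ivd: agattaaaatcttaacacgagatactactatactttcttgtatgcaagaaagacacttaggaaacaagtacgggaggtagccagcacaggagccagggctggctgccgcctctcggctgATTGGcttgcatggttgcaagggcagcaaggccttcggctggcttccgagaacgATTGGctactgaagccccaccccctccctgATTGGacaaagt
Bckdha: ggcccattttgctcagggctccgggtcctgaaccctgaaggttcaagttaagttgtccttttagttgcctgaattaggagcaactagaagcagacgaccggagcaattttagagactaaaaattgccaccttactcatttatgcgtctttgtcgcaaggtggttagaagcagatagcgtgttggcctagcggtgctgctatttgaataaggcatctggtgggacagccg

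RefSeq held windows for 32 of the 38 members, 36 windows in all, from 250 bases before to 50 after each start, and motifs were searched on both strands. CCAAT, a search added after the windows were seen and made in the 250 upstream bases, was in 17 windows of 15 members, among them Ivd, Pcca and Bckdhb, and in 33.8% of all 32851 promoters. TGTTCT, the core of the glucocorticoid response element, was in the windows of 6 members, Agxt, Bckdhb, Haao, Kmo, Pccb and Qdpr, and in 19.0% of all promoters. The C/EBP palindrome TTGCGCAA (0.183% of all promoters), the cAMP response element TGACGTCA (1.79%) and the HNF4 core CAAAGTCCA (0.475%) were in 0 member windows. Such matches describe the letters of these windows only.

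Ivd, isovaleryl-CoA dehydrogenase of leucine breakdown, had the smallest diet p of the 34 members. It read 1495, 1406 and 1253 on normal-diet arrays, 2005, 2299.9, 1907 and 1778 on wild-type high-fat arrays, and 1613, 1699 and 1316 on transgenic arrays 1 to 3 and 1539.9 on transgenic array 4. Wild-type high-fat arrays stood above both other groups, which overlapped each other. For diet the difference was 0.53 ± 0.12 (SE, limma adjusted p = 0.364, 95% confidence interval 0.26 to 0.79), a 1.44-fold higher geometric mean. The transgene difference was -0.37 ± 0.11 (adjusted p = 0.179), and -0.26 without transgenic arrays 3 and 4. The second probe set of Ivd gave 0.24 for diet and -0.29 for the transgene.

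Bckdha and Bckdhb are the E1 subunits of the branched-chain ketoacid dehydrogenase, the complex that commits all 3 branched-chain amino acids to breakdown, and Dbt is its E2 subunit. Bckdha read 2598, 2420 and 2059 on normal-diet arrays, 3088, 2744, 2880.4 and 3085 on wild-type high-fat arrays, and 2314, 2216, 2401 and 2348 on transgenic arrays. The transgenic arrays lay within the normal-diet range and the wild-type high-fat arrays above it. Between the wild-type groups the difference was 0.33 ± 0.098 (SE, limma adjusted p = 0.593) and the transgene difference -0.35 ± 0.091 (adjusted p = 0.121), the smallest transgene p of the 34 members. Without transgenic arrays 3 and 4 the latter was -0.38.

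Dbt read 1898, 1749.5 and 1349 on normal-diet arrays, 2271, 2647, 1952 and 2012 on wild-type high-fat arrays, and 1951, 2167, 1591 and 1634 on transgenic arrays. The lowest wild-type high-fat array exceeded the highest normal-diet array by little, and the transgenic arrays overlapped both groups. The diet difference was 0.42 ± 0.16 (SE, limma adjusted p = 0.67), and 0.27 without normal-diet array 3. The transgene difference was -0.28 ± 0.14 (adjusted p = 0.425), and -0.10 without transgenic arrays 3 and 4. Bckdhb had 0.075 for diet and -0.17 for the transgene, with overlapping groups in both. The propionyl-CoA carboxylase subunits Pcca and Pccb, which pass on the propionyl-CoA from isoleucine and valine, had 0.28 and 0.17 for diet and -0.10 and 0.081 for the transgene. Without transgenic arrays 3 and 4 the transgene value of Pcca turned to 0.025.

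**Figure D4:**
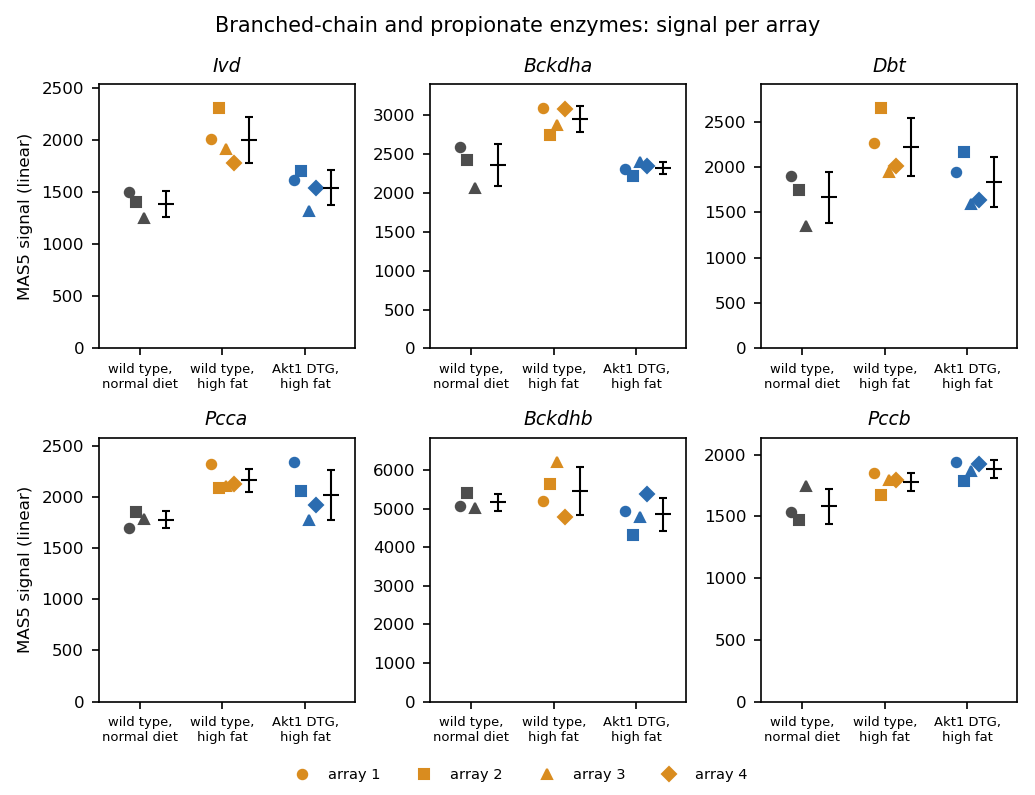
Signal on a linear scale for the 6 genes of branched-chain amino acids and propionate, 1 point per array with the shape giving the array number, and the mean with SD at the right of each group (wild type normal diet n = 3, wild type high fat n = 4, Akt1 DTG high fat n = 4). For Ivd and Bckdha all 4 wild-type high-fat arrays lie above both other groups.

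All 4 genes of lysine and histidine were measured. For diet 3 of 4 had higher mean log2 signals (median 0.21), for the transgene 4 of 4 (median 0.037, and 3 of 4 with a median of 0.14 without transgenic arrays 3 and 4), and 0 passed the test in either. Aass, the bifunctional enzyme that starts lysine breakdown, read 4633, 3339 and 2924 on normal-diet arrays, 6458, 5487, 4607 and 5465 on wild-type high-fat arrays, and 5695, 6173, 5702 and 4767 on transgenic arrays. Normal-diet array 1 and wild-type high-fat array 3 met, and otherwise both high-fat groups were above the normal-diet group. For diet the difference was 0.62 ± 0.16 (SE, limma adjusted p = 0.478), a 1.53-fold higher geometric mean, and the transgene difference 0.025 ± 0.15 (adjusted p = 0.957, 95% confidence interval -0.30 to 0.35), which became 0.12 without transgenic arrays 3 and 4.

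Uroc1, urocanase, the second enzyme of histidine breakdown, read 3185, 3165 and 3149 on normal-diet arrays, 3272, 2340.1, 2531 and 2529.7 on wild-type high-fat arrays, and 2942, 2964, 2705 and 2381 on transgenic arrays. Wild-type high-fat array 1 was above the normal-diet arrays and the other 3 below. Between the wild-type groups the difference was -0.26 ± 0.12 (SE, limma adjusted p = 0.714), and the other probe set of Uroc1 gave 0.14, the opposite sign. The transgene difference was 0.049 ± 0.11 (adjusted p = 0.885), and 0.16 without transgenic arrays 3 and 4. Hal, which deaminates histidine, and Ftcd, which passes its formimino group to folate, had 0.22 and 0.20 for diet. For the transgene they had 0.13 and 0.020, and 0.26 and -0.065 without transgenic arrays 3 and 4.

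Transgenic mice against normal-diet mice differ in both diet and transgene. Of the 34 members 22 had higher mean log2 signals and 12 lower (all genes 50.6% above), with a median difference of 0.16 (all genes 0.0041). At an unadjusted p under 0.05, 10 were higher (29.4%; all genes 9.96%) and 2 lower (5.88%; all genes 8.35%). Groups did not overlap in 7 with higher signals (20.6%; all genes 8.46%) and in 2 with lower signals, Afmid and Uroc1 (5.88%; all genes 7.1%). Uroc1 had -0.21 on the probe set used, and its other probe set gave 0.43, the opposite sign. The 10 became 4 without normal-diet array 2, 5 without normal-diet array 3 and 6 without transgenic array 4, and the median was 0.065 without normal-diet array 3 and 0.088 after quantile normalization. Without transgenic arrays 3 and 4, 8 were higher, 0 were lower and the median was 0.10.

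The members nearest to the threshold in this comparison were Agxt, at 0.71 ± 0.18 (SE, limma adjusted p = 0.0635), Aass, at 0.64 ± 0.16 (adjusted p = 0.0636), and Cps1, at 0.60 ± 0.15 (adjusted p = 0.0636). In each all 4 transgenic arrays lay above all 3 normal-diet arrays, and without transgenic arrays 3 and 4 the differences were 0.55, 0.73 and 0.43. Hgd, homogentisate dioxygenase, followed with 0.46 ± 0.13 (limma adjusted p = 0.099), and Afmid had the lowest value, -0.90 ± 0.29 (adjusted p = 0.139). The fit without normal-diet array 1 called 2 members, Aass and Cps1. The fits without wild-type high-fat array 2 and without transgenic array 1 each called 1, Agxt. Kupffer cell and macrophage markers had a median of 1.12 in the same comparison, with 2 of 8 past the threshold. Their part in the members' values was not tested.

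**Figure D5:**
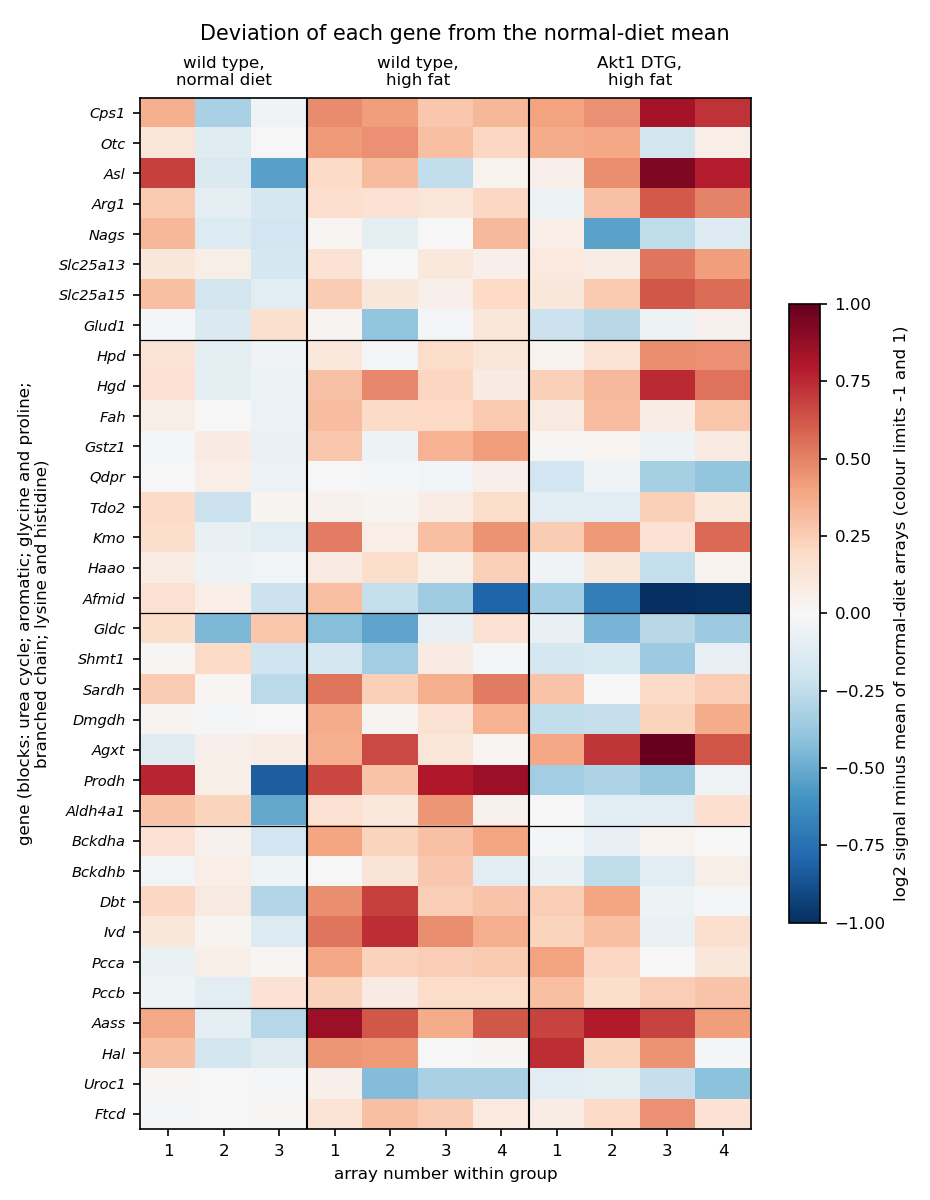
Log2 signal of the 34 members minus the mean of the normal-diet arrays, with arrays in columns by group and genes in rows by pathway. Red is above and blue below that mean, and values beyond -1 or 1 take the colour of the limit. Branched-chain genes are mostly red on the 4 wild-type high-fat arrays (array means 0.23 to 0.35), and urea cycle genes are reddest on transgenic arrays 3 and 4 (array means 0.38 and 0.37).

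Averaged per array relative to the normal-diet mean, the 6 branched-chain genes stood at -0.085 to 0.055 on normal-diet arrays, 0.23 to 0.35 on wild-type high-fat arrays and 0.0074 to 0.18 on transgenic arrays. The wild-type high-fat arrays thus lay above both other groups in this average. The 8 urea cycle genes stood at 0.27, -0.14 and -0.13 on normal-diet arrays, 0.073 to 0.21 on wild-type high-fat arrays, and 0.11, 0.14, 0.38 and 0.37 on transgenic arrays. Normal-diet array 1 was therefore above all wild-type high-fat arrays for the urea cycle. These averages describe members chosen with results known and carry no test.

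Other genes of amino acid transport and metabolism, a list of 69 of which 52 were measured, were counted in the same way. For diet 43 of 52 had higher mean log2 signals (82.7%; all genes 51.1%; median 0.19) and 0 passed. At an unadjusted p under 0.05, 11 were higher (21.2%; all genes 3.92%) and 1 lower (1.92%; all genes 3.09%). The smallest diet p belonged to Mccc2, a subunit of the carboxylase that follows Ivd in leucine breakdown, at 0.48 ± 0.12 (SE, limma adjusted p = 0.377), Gpt, alanine aminotransferase, at 0.70 ± 0.20 (adjusted p = 0.591), and mitochondrial Shmt2 at 0.43 ± 0.15 (adjusted p = 0.658). Leaving out normal-diet array 3 moved Gpt to 0.41, and the mean of its probe sets moved Shmt2 to 0.13. For the transgene 19 of 52 were higher (36.5%; all genes 50.2%; median -0.11) and 0 passed. Unadjusted p-values under 0.05 were found for 5 higher (9.62%; all genes 6.95%) and 8 lower genes (15.4%; all genes 6.74%). The amino acid transporter subunit Slc3a1 had 0.89 ± 0.22 (adjusted p = 0.11), the mitochondrial glutamate carrier Slc25a22 had 0.98 ± 0.26 (adjusted p = 0.131), and Got1, cytosolic aspartate aminotransferase, had 1.51 ± 0.44 (adjusted p = 0.169). Slc25a22 was at 0.61 without transgenic arrays 3 and 4, and it passed without transgenic array 1 (1.23, adjusted p = 0.040).

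In transgenic against normal-diet mice 3 of the 52 passed (5.77%; all genes 2.08%), all higher, and the calls depended on single arrays and settings. Slc3a1 rose by 1.35 ± 0.24 (SE, limma adjusted p = 0.0162), from 803 ± 122 (SD, n = 3) to 2143 ± 804 (SD, n = 4), and its call was lost without normal-diet array 2 (adjusted p = 0.0651) or transgenic array 4 (0.0571). Mccc2 rose by 0.63 ± 0.12 (limma adjusted p = 0.0203), from 371 ± 39.2 to 572 ± 35.4, and lost its call without any 1 of normal-diet arrays 1, 2 and 3 and transgenic array 4 (0.0510 to 0.0755), without transgenic arrays 3 and 4 (0.120), in the fit of the compared groups alone (0.0587) and in the fit with a replicate block (0.0515). Its partner subunit Mccc1 did not rise, at -0.42 ± 0.32 (limma adjusted p = 0.528). Mccc1 had 0.46 ± 0.32 for diet and -0.87 ± 0.30 for the transgene (limma adjusted p = 0.836 and 0.228). Slc7a2, a transporter of cationic amino acids such as arginine, rose by 1.33 ± 0.30 (limma adjusted p = 0.0456), and kept its call only without wild-type high-fat array 2 (0.00920) or 4 (0.0474) among the fits that leave out 1 array. It also lost its call without transgenic arrays 3 and 4 (adjusted p = 0.191), with no dim filter (0.0541), no trend (0.0733), robust eBayes (0.0577) or the replicate block (0.0712).

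Among 16 measured regulators of these pathways of 18 listed, 0 passed in any comparison. At an unadjusted p under 0.05, 0 were higher and 0 lower for diet (all genes 3.92% and 3.09%). For the transgene 3 were higher and 1 lower (18.8% and 6.25%; all genes 6.95% and 6.74%), and for transgenic against normal-diet mice 4 and 2 (25% and 12.5%; all genes 9.96% and 8.35%). Ppargc1a, a coactivator of fasting metabolism, read 103.1 to 156.7 on wild-type high-fat arrays and 202.5 to 247.7 on transgenic arrays, a difference of 0.82 ± 0.28 (SE, limma adjusted p = 0.228). Klf15, a factor known to drive amino acid breakdown genes, had 0.44 ± 0.17 (limma adjusted p = 0.292), and 0.28 without transgenic array 4 and 0.26 without transgenic arrays 3 and 4. The 1 lower regulator for the transgene was Nr3c1, the glucocorticoid receptor, at -0.34 ± 0.15 (limma adjusted p = 0.324). In transgenic against normal-diet mice Nr3c1 had the smallest p of the 16, at -0.53 ± 0.16 (limma adjusted p = 0.11).

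Because the urea cycle lies near the portal vein, genes known for that zone and for the zone around the central vein were read as well. Of 11 measured periportal genes 10 had higher mean log2 signals for diet (90.9%; all genes 51.1%; median 0.26) and 10 for the transgene (90.9%; all genes 50.2%; median 0.44), with 0 passing in either. Before adjustment 4 were higher at p under 0.05 for diet (36.4%; all genes 3.92%) and 2 for the transgene (18.2%; all genes 6.95%), and 0 were lower. Ctsc, a lysosomal protease also found in immune cells, had 0.92 ± 0.22 for the transgene (SE, limma adjusted p = 0.102), and 1.28 without transgenic arrays 3 and 4, where it passed (adjusted p = 0.0222). It also passed without transgenic array 3 (0.0384) and with array weights (0.0411). Apoc2, an apolipoprotein, had 0.50 ± 0.12 for diet (limma adjusted p = 0.375) and was the 1 periportal gene past the threshold in transgenic against normal-diet mice, where it rose by 0.68 ± 0.12 (adjusted p = 0.0162). Of 16 pericentral genes 8 were higher for diet (median -0.0054) and 5 for the transgene (median -0.11), with 0 passing in either. Before adjustment 2 were higher and 1 lower at p under 0.05 for diet (12.5% and 6.25%; all genes 3.92% and 3.09%), and 0 higher and 4 lower for the transgene (0% and 25%; all genes 6.95% and 6.74%). Gulo, which makes the precursor of vitamin C, had 0.40 ± 0.14 for diet (limma adjusted p = 0.658), and Lect2, a secreted protein, had -0.74 ± 0.19 for the transgene (limma adjusted p = 0.116), and passed without wild-type high-fat array 2 (-0.93, adjusted p = 0.0264).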

How the data were processed

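Liver RNA of 11 mice was read on 1 array each. The deposited values are linear intensity values (signal) per probe set made by the authors with MAS5, per the submitters' processing notes (version not given there). MAS5 scales each array separately, so a change in the shape of an array's signal distribution, as on transgenic arrays 3 and 4, is not removed. Trimmed mean signals were 500.251 to 500.285 per array, which that scaling sets in advance, and median signals were 97.2 to 118. No further scaling was applied in the main fit, and quantile normalization was run as an alternative. Detection calls were not used here. The number of arrays limits the precision.

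Symbols came from the platform annotation, and all 34 tested members were found in RefSeq (GRCm38.p6) with 0 symbols changed. The annotation gives 1 symbol to 20380 probe sets, which were used. The 691 with more than 1, the 1555 without any and 64 controls were not used. Values under 1 were set to 1 before log2. The dimmest 40% of probe sets (mean log2 signal below that of a signal near 53) were dropped, and each gene was read from its brightest remaining probe set. Groups came from the titles. The test was limma 3.58.1 run in R 4.3.3 (lmFit, eBayes with intensity trend, 8 residual degrees of freedom), all 11 arrays in 1 fit, two-sided, with Benjamini-Hochberg adjustment over 7924 genes. The main fit was checked on simulated data for each comparison, and the alternative fits were not. The p-values judge differences between group means against the spread between these mice, as moderated by limma with the intensity trend.

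The members, lists and rules were chosen with earlier results of these data known. Values on every array are given for the urea cycle enzymes and for the 3 members of each pathway (2 for lysine and histidine) with the smallest unadjusted p for diet or transgene. Other listed genes are named where they passed or had the smallest p. The settings varied were the scaling (quantile normalization), the offset (log2 of signal plus 32), the dim filter (none or 60%), the probe sets read (all, or their mean per gene), eBayes (robust, or with no trend), array weights, the groups in the fit, a block for the replicate number, and each array in turn. The fit without transgenic arrays 3 and 4 and the reading of all probe sets of a member without a filter were added after the data were seen.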

Additional observations from a re-analysis of the deposited data

Results flagged for a closer look

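In 68 groups of 4 arrays (34 members in the wild-type high-fat and the transgenic group), 1 value stood apart from its group by Dixon's test at the 95% level, which by chance is met in about 1 of 20 groups. Wild-type high-fat array 1 read 2327.5 for Pcca, a subunit of propionyl-CoA carboxylase, against 2090 to 2129 on the other 3 arrays of the group. The normal-diet group, with 3 arrays, could not be tested in this way.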

How the results depend on the processing

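With 11 arrays, differences as small as most of those above do not pass a test over 7924 genes, and 1 or 2 arrays move many of them. For diet and the transgene, 0 members passed under every alternative run. For transgenic against normal-diet mice 0 to 2 members passed when 1 array was left out. The median over members ranged from 0.16 to 0.24 for diet over all alternatives. For the transgene it ranged from -0.13 to -0.030 with 1 array left out, and for transgenic against normal-diet mice from 0.065 to 0.21. In the last comparison it was 0.088 after quantile normalization.

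The labels do not say that a number marks a shared source, and not every pair's correlation was over 0.1, so the replicate numbers were not used to pair the arrays. The correlations of same-numbered deviations were 0.0287, -0.00754 and -0.0721 between the wild-type groups and 0.0842, 0.292, 0.135 and 0.122 between the high-fat groups, where each array correlated best with its own number, a hint from the data and not from the design. Between transgenic and normal-diet arrays they were -0.00777, -0.0592 and 0.111, with replicate 3 alone best with its own number. With the replicate block, 0 members passed for diet, 0 for the transgene and 1 for transgenic against normal-diet mice (Aass, 0.68, limma adjusted p = 0.0425), and Mccc2 and Slc7a2 lost their calls there.

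Among the members with values on every array, 8 differences changed sign under at least 1 setting, in 17 cases in all, and the cause was not tested. For diet, Qdpr turned to -0.0032 after quantile normalization, -0.0058 with array weights, and -0.012 and -0.024 without wild-type high-fat array 4 and normal-diet array 3. Diet values of Nags turned to -0.0045, -0.034 and -0.025 without normal-diet arrays 2 and 3 and wild-type high-fat array 4, and those of Asl to -0.20 and -0.0051 without normal-diet array 3 and wild-type high-fat array 2. For the transgene, Kmo turned to -0.072, -0.012 and -0.057 without wild-type high-fat array 2 and transgenic arrays 2 and 4, Uroc1 to -0.0099 without wild-type high-fat array 2, and Aass to -0.057 and -0.026 without wild-type high-fat array 3 and transgenic array 2. With 1 array left out, these 6 differences reached at most 0.036 (Qdpr), 0.23 (Nags), 0.42 (Asl), 0.085 (Kmo), 0.15 (Uroc1) and 0.11 (Aass). Without transgenic arrays 3 and 4, 5 of 34 members turned: Otc to 0.030, Arg1 to -0.038, Hpd to -0.015, Pcca to 0.025 and Ftcd to -0.065.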

Other observations

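Of the 34 members, 9 had more than 1 probe set, 12 further ones in all, read with no filter on dim probe sets. These had the sign of the probe set used in 8 cases for diet, 11 for the transgene and 8 for transgenic against normal-diet mice. For diet the 4 exceptions were 3 probe sets of Shmt1 and 1 of Uroc1, and for the transgene the exception was 1 of Shmt1. In transgenic against normal-diet mice the 4 exceptions were 1 probe set each of Otc, Shmt1, Ivd and Uroc1.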
